A study of Mus musculus with 2 samples.

Results

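Distal open-chromatin peaks that lie inside repeat sequence were examined in the newborn mouse heart. They were taken from DNase-seq peaks on chromosomes 1 to 19 that overlapped by at least 1 bp between both libraries and had their centre more than 1 kb from every annotated transcription start site (TSS). A peak was counted as inside repeats when at least 120 of the 150 bases of replicate 1's peak were soft-masked, that is, written in lower case as repeats in the genome sequence. By this rule 2244 of 80575 shared distal peaks (2.78%) lay inside repeats, and they are called repeat peaks here. The remaining 78331 shared distal peaks are called other shared distal peaks. No measured value entered the rule beyond the calling of the peaks, and no cell type was called. Just inside the mask limit, at 120 to 124 masked bases, 197 peaks had median values of 25 in replicate 1 and 20 in replicate 2. Just outside it, at 115 to 119 masked bases, 204 peaks had median values of 27 and 21.

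Both libraries came from heart tissue of B6NCrl mice on postnatal day 0, with no treatment or altered gene in the labels, and form 1 group with no second condition. The labels number them as biological replicates 1 and 2, give them separate biosamples but the same donor label, and record no sex, so the spread between them may be technical. DNase I cleaves accessible DNA in nuclei, and the authors deposited 150 bp peaks and wider hotspots of raised cleavage for each library on build mm10. Replicate 1 had 160646 peaks on chromosomes 1 to 19 and replicate 2 had 141265, of which 118846 and 101334 were distal. Sequencing depth is unknown, and with 1 group of 2 libraries no test over samples can pass 0.05, so values are given for each library.

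Much of the mouse genome derives from transposable elements, which copy themselves into new places, and from tandem arrays of short units. Most copies are kept silent by DNA methylation and closed chromatin, but some carry binding motifs for transcription factors and serve as enhancers or as sites of the insulator protein CTCF, which anchors chromatin loops. Tracts with only purines on 1 strand can leave the usual double helix and form triplexes, and reads from any repeated sequence are harder to place on the genome.

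The sequences below show the kinds of repeat that the results turn on. Each is the peak of replicate 1 on the forward strand of GRCm38.p6, the sequence of mm10, and is named by its nearest protein-coding gene. Sequence groups join each repeat peak to any other that it aligns to with at least 80% identity over at least 100 bp. Peaks linked only through others also share a group, so members need not all align to each other. Groups are numbered by size because no family names were used. In the first pair, from group 2, the capitals mark the core of the CTCF motif on either strand.
Gsta4 intron, chr9:78194036-78194185: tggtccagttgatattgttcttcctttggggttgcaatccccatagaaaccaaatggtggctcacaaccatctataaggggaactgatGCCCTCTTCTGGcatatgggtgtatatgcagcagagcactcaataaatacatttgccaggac
Group 2, the member aligning to most others, chr3:40794136-40794285: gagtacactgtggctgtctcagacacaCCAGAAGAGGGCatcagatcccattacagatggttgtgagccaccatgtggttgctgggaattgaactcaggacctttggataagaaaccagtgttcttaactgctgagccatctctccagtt
The next pair, from group 4, has in capitals TGACAG, a motif of the homeobox factors MEIS and TGIF.
Hdac9 intron, chr12:34444816-34444965: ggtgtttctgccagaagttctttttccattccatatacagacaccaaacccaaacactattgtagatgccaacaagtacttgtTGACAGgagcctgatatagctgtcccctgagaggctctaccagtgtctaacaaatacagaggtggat
Group 4, the member aligning to most others, chr14:87423656-87423805: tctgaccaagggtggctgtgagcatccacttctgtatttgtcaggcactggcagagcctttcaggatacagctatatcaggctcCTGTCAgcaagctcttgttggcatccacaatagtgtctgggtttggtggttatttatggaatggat
The next pair, from group 5, has in capitals AGATAA, the motif of GATA factors.
Near Pkia, chr3:7449476-7449625: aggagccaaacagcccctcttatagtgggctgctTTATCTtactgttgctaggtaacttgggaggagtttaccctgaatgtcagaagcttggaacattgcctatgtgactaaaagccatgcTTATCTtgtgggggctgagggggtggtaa
Near Cth, chr3:157848656-157848805: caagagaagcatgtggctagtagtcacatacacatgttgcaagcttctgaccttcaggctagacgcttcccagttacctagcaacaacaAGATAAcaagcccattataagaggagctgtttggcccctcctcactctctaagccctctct
The following member of group 3 has its CpG dinucleotides in capitals.
Pknox1 intron, chr17:31570416-31570565: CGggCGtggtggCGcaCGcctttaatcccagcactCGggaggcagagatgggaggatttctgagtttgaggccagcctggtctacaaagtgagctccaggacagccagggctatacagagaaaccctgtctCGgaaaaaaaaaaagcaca
In the following purine tracts, the capitals mark the bases that break the run of purines, or of pyrimidines where the purines are on the other strand.
Osbpl10 intron, chr9:115014036-115014185: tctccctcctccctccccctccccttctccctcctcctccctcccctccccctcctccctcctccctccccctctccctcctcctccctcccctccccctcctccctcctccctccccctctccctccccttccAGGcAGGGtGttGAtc
Myom2 intron, chr8:15117136-15117285: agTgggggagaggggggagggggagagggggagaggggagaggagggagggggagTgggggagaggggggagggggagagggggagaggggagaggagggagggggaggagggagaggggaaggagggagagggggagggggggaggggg
In the last pair the capitals mark each copy of the most frequent 6-mer.
Near 2010315B03Rik, chr9:124257556-124257705: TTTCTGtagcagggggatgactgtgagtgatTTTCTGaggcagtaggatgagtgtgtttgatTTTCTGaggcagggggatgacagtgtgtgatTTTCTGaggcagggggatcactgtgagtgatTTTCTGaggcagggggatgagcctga
Smo intron, chr6:29748816-29748965: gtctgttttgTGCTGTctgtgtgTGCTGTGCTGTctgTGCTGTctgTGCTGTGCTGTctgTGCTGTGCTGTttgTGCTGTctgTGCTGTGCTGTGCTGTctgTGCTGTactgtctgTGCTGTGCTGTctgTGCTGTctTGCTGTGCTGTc

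Repeat sequence was far rarer under peaks than in the genome around them. Of 112271496 windows of 150 bp at the same distance from TSSs, taken every 20 bp, 17.6% had at least 120 masked bases, a share 6.33-fold that of shared distal peaks. Of the peaks found in 1 library alone, 5.00% in replicate 1 and 2.11% in replicate 2 lay inside repeats. All 150 bases were masked in 1123 repeat peaks (50.04%). The masked share averaged 96.6% in the 100 bp at the centre of these peaks and 35.8% at 1000 bp, and in other shared distal peaks 8.82% and 24.6% at the same places. Since peaks may overlap, the 2244 repeat peaks formed 1800 separate loci and had 2046 distinct partner peaks in replicate 2.

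Sorted by composition, the repeat peaks were of 3 kinds. A purine tract, with at least 90% purines on 1 strand, made up 860 of them (38.3%), against 1.10% of all shared distal peaks and 1.87% of masked genome windows. Other tandem repeats, at least 70% identical to themselves when shifted by up to 60 bases, made up 166 (7.40%), against 0.877% of all shared distal peaks and 2.28% of masked windows. The remaining 1218 (54.3%) had neither property, as had 95.9% of masked windows. The purine tracts were GC-rich, with a median GC content of 62%, and 80.9% of them held no CpG. Among all repeat peaks 1352 (60.2%) held no CpG, against 17.1% of all shared distal peaks.

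The deposited value of a peak, a whole number from 1 to 150 that is taken here as a rank of signal within a library, was low in repeat peaks. Its median was 25 in replicate 1 and 18 in replicate 2, with the middle 50% of peaks from 18 to 34 and from 13 to 26. Other shared distal peaks had medians of 41 and 37. The difference was 16 in replicate 1 and 19 in replicate 2, larger than the gap of 7 between the libraries' own medians for repeat peaks. In percentiles of all peaks of a library, the median repeat peak stood at 24.9 and 14.2, and the median other shared distal peak at 58.7 and 54.3. Above the library's median lay 444 repeat peaks (19.8%) in replicate 1 and 219 (9.76%) in replicate 2, against 57.9% and 53.4% of all shared distal peaks. The highest 10% held 2 repeat peaks in each library, against 6.87% and 5.12% of all shared distal peaks.

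**Figure D1:**
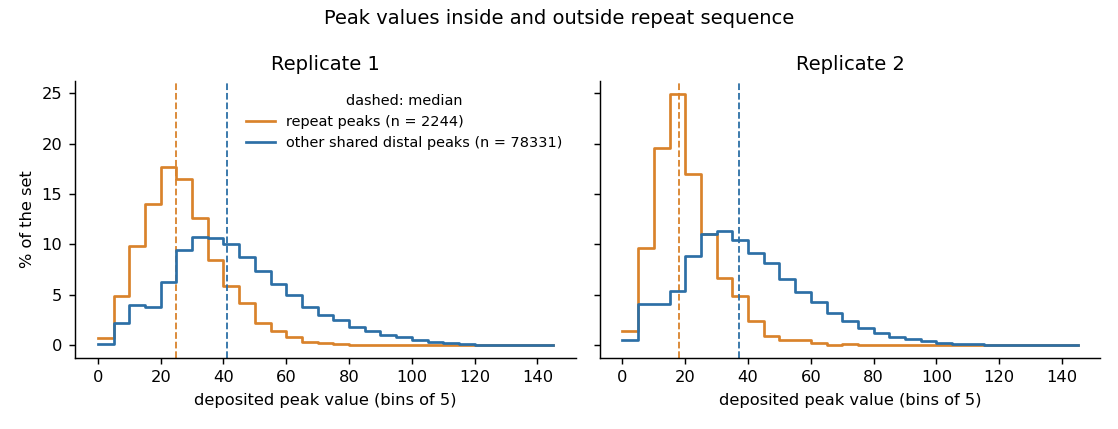
Share of repeat peaks and of other shared distal peaks in each bin of 5 of the deposited peak value, for each library, with dashed lines at the medians. The repeat peaks sit to the left in both panels, with medians of 25 and 18 against 41 and 37.

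By kind, purine tracts had median values of 28 and 19, other tandem repeats 25 and 18, and the remaining repeat peaks 23 and 18 in replicates 1 and 2. The kinds thus differed by up to 5 in replicate 1 and by up to 1 in replicate 2, less than the gap between libraries. Among other shared distal peaks these kinds had low values too. Medians there were 25 and 18 in 541 other tandem repeats and 31 and 21 in 27 purine tracts. The repeat peak with the highest mean percentile was in an intron of Gsta4, which encodes a glutathione S-transferase, with values of 78 and 73. It was followed by a peak in an intron of Trak1, an adaptor that ties mitochondria to kinesin, with 70 and 75, and by the 31-base tandem array near 2010315B03Rik with 81 and 65. The array of TGCTGT units in an intron of Smo, the signal transducer of the Hedgehog pathway, had 72 and 63. Its identity to itself when shifted was 69.9%, just under the limit, so it is counted in the remaining kind. Of the 10 repeat peaks with the highest mean percentile, 5 belonged to group 2.

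Repeat peaks, and purine tracts most of all, leaned toward replicate 1. The value was higher in replicate 1 in 1859 repeat peaks (82.8%) and higher in replicate 2 in 291, against 69.2% of all shared distal peaks higher in replicate 1. Among purine tracts 778 of 860 (90.5%) were higher in replicate 1, and among the remaining repeat peaks 77.3%. The lean was not confined to repeat peaks. Among other shared distal peaks, 81.9% of 541 other tandem repeats and 81.5% of 27 purine tracts were higher in replicate 1. Since no scaling of the values between libraries is stated, percentiles within each library's own peaks were compared too. The percentile was higher in replicate 1 in 1704 repeat peaks (75.9%), against 63.1% of all shared distal peaks, and in 742 purine tracts (86.3%). The median difference, replicate 1 minus replicate 2, was 6.16 percentile points in repeat peaks and 2.52 in other shared distal peaks. By kind it was 13.1 in purine tracts, 7.81 in other tandem repeats and 3.18 in the remaining repeat peaks. Across peaks, the values of both libraries had a Spearman correlation of 0.810 over 2244 repeat peaks and of 0.895 over 78331 other shared distal peaks, as a description only, since neighbouring peaks can overlap. The middle 50% of other shared distal peaks ran from 29 to 56 and from 25 to 51, a wider range than in repeat peaks. No correlation over a matched range of values was computed, so these correlations do not compare agreement between libraries.

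The same lean was seen in the lists before a partner was required. Replicate 1 had 4158 distal peaks inside repeats (3.50% of its distal peaks) and replicate 2 had 2584 (2.55%). Purine tracts numbered 1850 in replicate 1 and 883 in replicate 2, a ratio of 2.10. The ratio was 1.83 for other tandem repeats, 1.30 for the remaining kind and 1.16 for distal peaks outside repeats. In replicate 1, 54.0% of distal peaks inside repeats had a partner in replicate 2, against 67.8% of all its distal peaks. In replicate 2, 83.0% had a partner in replicate 1, against 79.5%. For purine tracts the shares were 46.5% and 89.8%. Both libraries were sequenced on the same pair of instrument models and their depth is unknown, and the part of depth or library preparation in this lean was not tested.

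**Figure D2:**
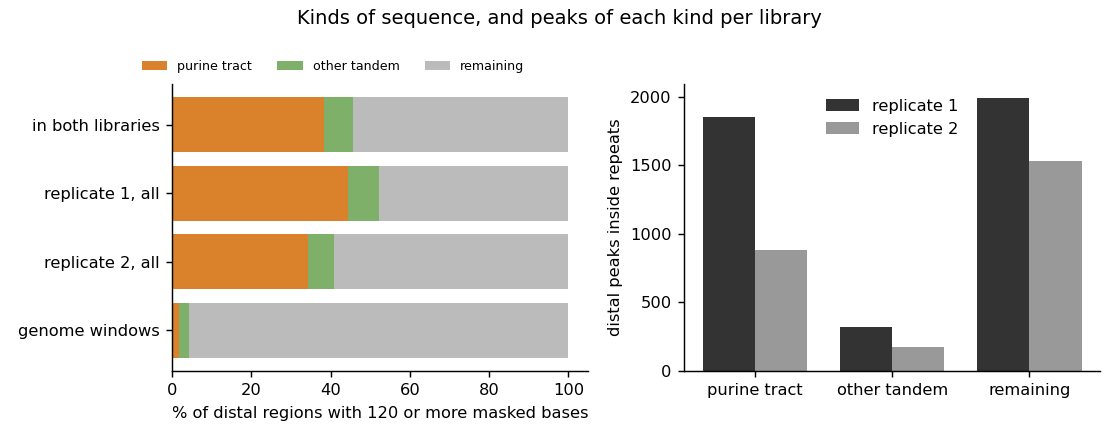
Left, share of each kind of sequence among distal regions with at least 120 masked bases, for genome windows, all such peaks of each library and those in both libraries. Right, number of such peaks of each kind in each library; the 1850 purine tracts of replicate 1 stand beside 883 in replicate 2.

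The widest differences between libraries by percentile included 4 purine tracts from 2 places. The overlapping pair nearest Olfr1238 had values of 54 and 50 in replicate 1 and 12 in replicate 2, and the pair near Spata19 had 49 and 48 in replicate 1 and 14 in replicate 2. The exception was a peak in an intron of Sptan1, with 25 in replicate 1 and 72 in replicate 2. Its partner in replicate 2 overlapped it by 10 bp and had 0 masked bases.

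Hotspots were deposited in lists of their own. Every repeat peak lay in a hotspot in both libraries, as did 100% of all shared distal peaks. The hotspot was at the highest q-value level, a −log10 q of 100, for 1361 repeat peaks (60.7%) in replicate 1 and 738 (32.9%) in replicate 2. The shares over all shared distal peaks were 44.5% and 35.1%, so the repeat peaks stood above them in replicate 1 and slightly below in replicate 2. Over all distal peaks of a library, with or without a partner, the shares were 37.8% inside repeats and 31.5% outside in replicate 1, and 28.7% on both sides in replicate 2. The hotspots were short, with median lengths of 163 and 148.5 bp, against 259 and 251 bp for other shared distal peaks. Other tandem repeats among the latter had hotspots of 156 and 136 bp, with 56.7% and 31.4% at the highest level. For purine tracts the highest level was reached by 63.6% in replicate 1 and 26.3% in replicate 2, and for the remaining kind by 59.1% and 38.5%.

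Uniqueness was measured as the share of a peak's 32-mers that occur once in chromosomes 1 to 19, X and Y on either strand. Its median was 63.0% in repeat peaks, and every one held at least 4.20%. Of masked genome windows, whose median was 26.9%, 29.2% held no unique 32-mer. At least 90% of 32-mers were unique in 405 repeat peaks (18.05%), against 94.0% of all shared distal peaks. Median values were 22 and 16 in the 116 repeat peaks with at most 25% unique 32-mers, and 29 and 21 in the 169 with all unique. The share in a hotspot at the highest level went the other way, from 80.2% and 47.4% to 43.8% and 25.4%. The 73622 other shared distal peaks with all 32-mers unique had medians of 42 and 37. The 404 other shared distal peaks with at most 50% unique 32-mers had medians of 20.5 and 16.5. Of these 404, 57.2% and 41.1% lay in a hotspot at the highest level. The part of read placement in these values was not tested.

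**Figure D3:**
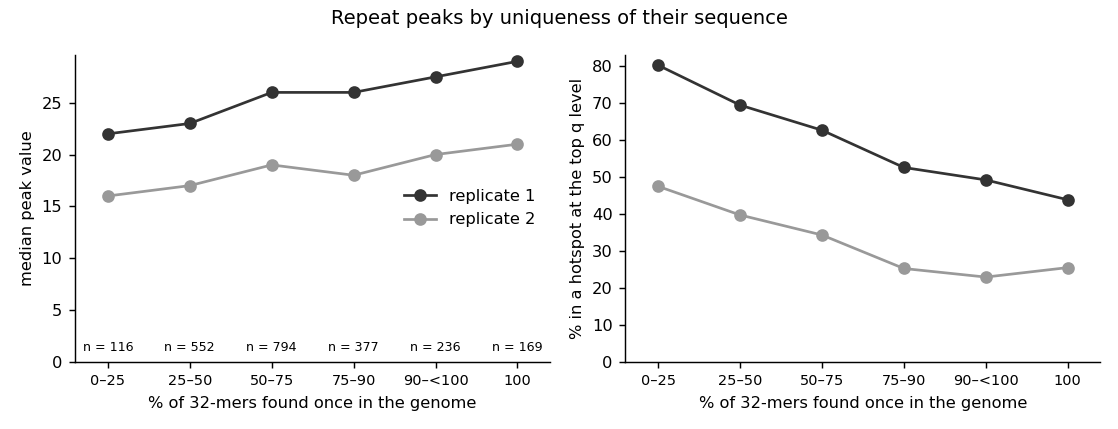
Median peak value and share of repeat peaks in a hotspot at the highest q-value level, by the share of 32-mers found once in the genome. From the least to the most unique bin, the median value went from 22 to 29 in replicate 1 and the hotspot share from 80.2% to 43.8%.

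Among repeat peaks with values at or above the library medians in both libraries, the lowest uniqueness was 21.0%, in a purine tract nearest Fut10, with values of 44 and 37. A non-tract peak nearest Ddi1 had 25.2% unique 32-mers, with values of 60 and 58, and its median 32-mer occurred 49 times in the genome.

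By sequence, 1458 repeat peaks (64.97%) fell into 45 groups of 3 or more, and 602 (26.8%) aligned to no other. Overlapping peaks align through the bases they share, and of the 45 groups 29 held at least 3 separate loci, 14 held 2 and 2 held 1. With 1 peak kept per locus, 1044 of 1800 were in groups of 3 or more. Group 1 held 982 peaks at 771 loci on all 19 chromosomes, of which 811 were purine tracts, 59 other tandem repeats and 112 of the remaining kind. Its median values were 27 and 18, and 882 of its peaks (89.8%) were higher in replicate 1. Outside it, 476 repeat peaks lay in groups of 3 or more. The tract in an intron of Osbpl10, a lipid-transfer protein, had the highest mean percentile of the group, with values of 72 and 55. The tract in an intron of Myom2, which encodes a protein of the sarcomere's M-band, had 53 and 52.

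Group 2 held 131 peaks at 114 loci on all 19 chromosomes and carried the CTCF motif in 89 (67.9%), against 9.37% of all shared distal peaks. Its median values were 32 and 27. Peaks of the group with the motif had median values of 34 and 30, against 24 and 16 in the 42 without it. Of those with the motif, 29.2% lay in a hotspot at the highest level in replicate 1 and 23.6% in replicate 2, and of those without it 78.6% and 59.5%. The motif sat at a median of 20 bp from the peak centre, the same distance as in the 7403 other shared distal peaks that carried it. The group also carried the RUNX motif TGTGGTT in 81 peaks, against 3.10% of all shared distal peaks, with median values of 34 and 27 in peaks with it and 29.5 and 26 in those without. Of the group's peaks, 87 (66.4%) had the higher value in replicate 1, a share near the 69.2% of all shared distal peaks. The peak in the Gsta4 intron carries 1 CTCF motif, and the peak near Rasl11a, a small GTPase related to Ras, carries none and had values of 71 and 57.

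Genome copies were sought with 1 peak per group, the member aligning to most others, and peaks lay on few of them. That member aligned to 43 other peaks in group 2, 27 in group 3 and 39 in group 4. Its copies are therefore not all copies of the group, and some of the group's peaks lie outside them. At distal sites 83994 copies aligned to the group 2 peak shown above over at least 100 bp, and 73 (0.0869%) held a peak centre in both libraries. Copies with the CTCF motif held a peak in replicate 1 in 80 of 38354 cases (0.209%), against 30 of 45640 (0.0657%) without it, a ratio of 3.17 with an exact 95% interval of 2.06 to 5.00. In replicate 2 the ratio was 3.65, with an interval of 2.39 to 5.71. The RUNX motif was in 74.7% of all copies, and copies with it held a peak in both libraries in 0.0749% of cases against 0.122% without it, a ratio of 0.613 with an interval of 0.372 to 1.03. Intervals here cover counting error only, and a copy cut short can lose both the motif and the place where a peak would lie. The CTCF motif, like those followed in groups 4 and 5, is one that the group's own peaks carried often. Copies with a peak include peaks of the group, so these ratios describe the peaks already selected and are no test of the motif. Among copies of at least 140 bp, a limit chosen after the values were seen, the CTCF ratios were 1.88 and 1.93. Their intervals, of 0.908 to 4.07 and of 0.985 to 3.92, included equal shares with and without the motif.

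Group 4 held 69 peaks at 54 loci, with median values of 28 and 22, and 62 (89.9%) were higher in replicate 1, against 69.2% of all shared distal peaks. It carried TGACAG in 45 (65.2%), against 15.1% of all shared distal peaks. Peaks with the motif had median values of 30 and 24, and the 24 without it 27 and 19.5. Hotspots went the other way, with 42.2% and 15.6% at the highest level with the motif and 62.5% and 54.2% without it. The motif lay at a median of 16 bp from the peak centre, against 32 bp in other shared distal peaks. Of 16853 genome copies with the motif 60 held a peak in replicate 1 and 47 in replicate 2. Of 14567 copies without it 5 and 1 did, which gives ratios of 10.4 with an interval of 4.21 to 33.1 and 40.6 with an interval of 6.94 to 1638. Among copies of at least 140 bp a peak lay in replicate 1 on 24 of 6514 copies with the motif and on 1 of 2831 without it. The ratio of 10.4 thus rested on 1 copy without the motif, with an interval of 1.70 to 429. In replicate 2 a peak lay on 18 of 6514 copies with the motif and on 0 of 2831 without it, which allows a share of up to 0.106%. The member with the highest mean percentile lay in an intron of Hdac9, a histone deacetylase that binds MEF2 factors, with values of 65 and 48.

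Group 5 held 20 peaks at 17 loci, with median values of 31.5 and 30.5. It carried AGATAA in 13, against 9.63% of all shared distal peaks, and AGGTCA, to which nuclear receptors bind, in 18, against 12.5%. Of its peaks 11 (55%) were higher in replicate 1, against 69.2% of all shared distal peaks. The 13 peaks with AGATAA had medians of 32 in both libraries, and the 7 without it 30 and 24. The motif lay at a median of 38 bp from the peak centre, against 33 bp in other shared distal peaks. Of 2243 genome copies of the group's member aligning to most others, 22 (0.981%) held a peak in both libraries. This was the highest share among the members used for groups 2 to 6. Copies with AGATAA held a peak 3.17 times as often as copies without it in replicate 1, with an interval of 1.62 to 6.32, and 4.10 times as often in replicate 2, with an interval of 1.93 to 9.14. Among copies of at least 140 bp these ratios were 0.909, with an interval of 0.433 to 1.94, and 1.36, with an interval of 0.597 to 3.31. Both intervals included equal shares and also overlapped those at 100 bp, so a change with copy length is not shown. The members near Pkia, an inhibitor of protein kinase A, and Cth, an enzyme of cysteine synthesis, had values of 56 and 61 and of 58 and 55.

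**Figure D4:**
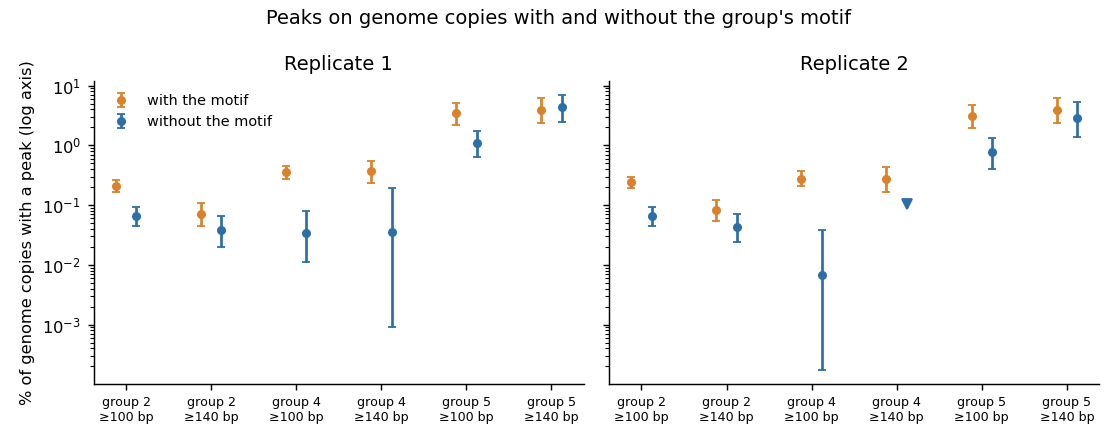
Share of genome copies that hold a peak centre, on a log axis, for copies with and without the motif of the group (CTCF in group 2, TGACAG in group 4, AGATAA in group 5) and at least 100 or 140 bp long; bars are exact 95% binomial intervals and the triangle is the limit that 0 of 2831 copies allows. In groups 2 and 5 the shares with and without the motif lie closer at 140 bp than at 100 bp. Copies with a peak include peaks of the group, so the intervals cover counting error only and are no test of the motif.

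Groups 3 and 6 had low values and a small share of occupied copies. Group 3 held 74 peaks at 58 loci, with median values of 18 and 14. Of these, 30 aligned over at least 100 bp to the SINE B1_Mus2 that RefSeq annotates at chr7:103823699-103823836, and over all 36 repeat peaks that did, the median identity was 82.9%. Of 137054 genome copies of the group's member aligning to most others, 28 (0.0204%) held a peak in both libraries. That member lay in an intron of Pknox1, which encodes a homeobox factor. It also had the highest mean percentile of the group, with values of 48 and 36. The Sptan1 peak with 25 and 72 belongs to this group as well. Group 6 held 14 peaks with medians of 19 and 16. Of 57833 copies of its member aligning to most others, 8 (0.0138%) held a peak in both libraries.

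Motifs of heart transcription factors were rarer in repeat peaks than in other shared distal peaks. Each of 34 consensus motifs was searched on both strands, with overlaps between motifs allowed, and the share was higher in repeat peaks for 1 of them, RUNX, at 4.99% against 3.05% of other shared distal peaks and 4.83% of masked genome windows. AGATAA was in 94 repeat peaks (4.19%), against 9.79% of other shared distal peaks. The motif of MEF2 factors, which drive muscle genes, was in 18 (0.802%) against 5.05%. GGAATG of TEAD factors, the DNA-binding partners of YAP, was in 164 (7.31%) against 12.4%, and AAGTGNC of NKX2 factors in 44 (1.96%) against 10.1%. TGANTCA of AP-1 was in 40 (1.78%) against 8.73%, and CAGCTG of basic helix-loop-helix factors in 50 (2.23%) against 14.9%. Over all shared distal peaks the shares were 4.93% for MEF2, 12.2% for TEAD, 9.86% for NKX2, 8.54% for AP-1 and 14.6% for CAGCTG. For these 5 motifs and AGATAA, the windows 1000 bp to either side and the masked genome windows also had higher shares than all repeat peaks together. Purine tracts held NKX2 in 0%, AP-1 in 0.116% and CAGCTG in 0.233%. In the remaining kind TEAD, AP-1 and CAGCTG reached 9.03%, 3.04% and 3.86%, above the 7.66%, 2.38% and 3.21% of masked genome windows. There MEF2, NKX2 and AGATAA stayed below these windows, at 1.31%, 3.53% and 6.73% against 1.34%, 5.51% and 7.37%.

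CTCF differed from these. Its motif was in 146 repeat peaks (6.51%), against 9.45% of other shared distal peaks, but against 1.20% of the windows 1000 bp to either side and 1.58% of masked genome windows. All 146 were of the remaining kind, where they made up 11.99%, and 57 of them were outside group 2. Peaks of this kind with the motif had median values of 32 and 30, and those without it 22 and 16. The order was reversed in hotspots, with 28.1% and 23.97% at the highest level with the motif and 63.3% and 40.5% without it.

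**Figure D5:**
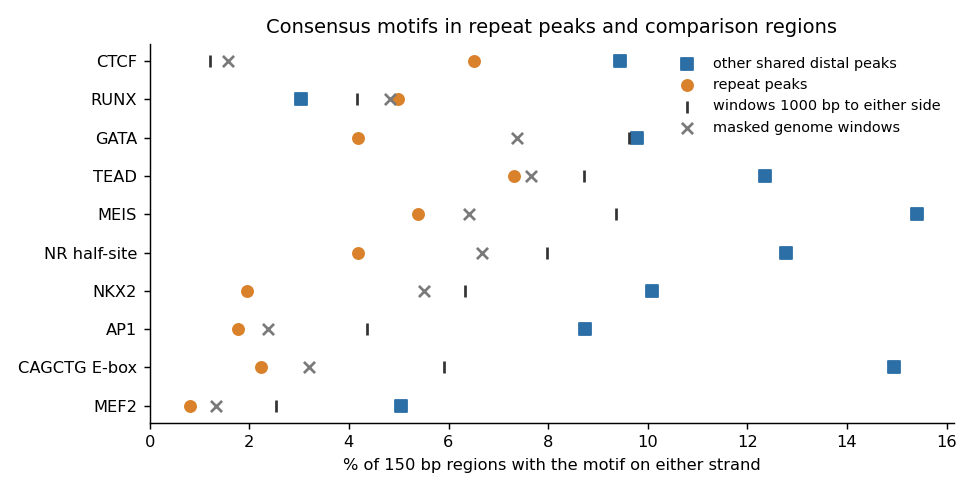
Share of 150 bp regions with each of 10 consensus motifs on either strand, in repeat peaks, other shared distal peaks, windows 1000 bp to either side of repeat peaks and masked genome windows. CTCF at 6.51% lies well above both sets of windows, and RUNX at 4.99% is above other shared distal peaks.

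Repeat peaks lay farther from genes than other shared distal peaks. Their median distance to a TSS was 15.6 kb, against 11.8 kb, and 1262 (56.2%) were intergenic, against 42.6% of all shared distal peaks. In introns lay 957 (42.6%), against 51.9% of all shared distal peaks, and in exons 25 (1.11%), against 5.52%. Their share of shared distal peaks ranged over chromosomes from 2.12% on chromosome 19 to 3.41% on chromosome 5. The peak was at the same position in both libraries for 983 (43.8%), against 31.0% of all shared distal peaks.

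Repeat peaks near the genes of each tissue list numbered at most 4, for heart and for other tissues. Within 50 kb of a TSS of any protein-coding gene, 1178 of 55541 shared distal peaks (2.12%) lay inside repeats. The counts were 2 of 254 near genes of the sarcomere and Z-disc, 2 of 300 near ion channel and calcium handling genes, and 1 of 244 near cardiac transcription factors. They were 3 of 165 near fatty acid oxidation genes, 3 of 229 near endothelial genes, 4 of 146 near fibroblast genes, 1 of 145 near smooth muscle genes and 2 of 66 near epicardial genes. Near genes foreign to heart muscle they were 4 of 82 for hepatocytes, 2 of 107 for neurons, 3 of 82 for macrophages, 1 of 51 for erythroid cells and 0 of 75 for lymphoid cells, which allows a share of up to 4%. In all, 9 of the 13 lists had a lower share than protein-coding genes at large, on counts of at most 4, and the differences between lists were not tested. The lists with a higher share were fibroblast (2.74%), epicardial (3.03%), macrophage (3.66%) and hepatocyte (4.88%), so heart lists lay on both sides.

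Among the repeat peaks near these genes, the Myom2 tract had the highest sarcomere values. A tract in an intron of Kcnq1, a potassium channel of cardiac repolarization, had values of 44 and 29 and was all unique in its 32-mers. A peak in an intron of Smyd1, a methyltransferase of striated muscle, had 36 and 29. A peak near Cpt2, which takes part in mitochondrial import of long-chain fatty acids, had 63 and 36. A peak near Pecam1, an adhesion molecule of endothelial cells, had 46 and 51, and a tract in an intron of Myh11, the smooth muscle myosin, had 42 and 30. Tissue markers were used here only as these gene lists, and fewer cells of a type cannot be told apart from less open chromatin per cell in bulk tissue.

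The protein-coding genes with the most repeat peaks within 50 kb had 4 each, often from overlapping peaks. For Mtrr, Fastkd3 and 1700001L19Rik, which share a neighbourhood, the 4 peaks were purine tracts at 2 loci with median values of 46 and 35. For Erc1 the 4 peaks, none of them a tract, were at 2 loci with medians of 42.5 and 39. For Srrm1 the medians were 7.5 and 8.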

How the data were processed

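DNase-seq was done on 2 samples of heart from newborn B6NCrl mice, which form 1 group. Per the text deposited beside the files, the authors called peaks and hotspots in each library on its own, from filtered alignments to mm10. No source used here names the aligner, the caller or their thresholds. In the deposited peak lists, every 150 bp peak has a signal value, a whole number with no scaling stated. In the deposited hotspot lists, the value is the −log10 q-value, which stops at 6 and then jumps to 100. No read totals were given, so depth and the precision it gives are unknown, and a caller's threshold or a filter on reads that map to many places would change which repeats enter the lists.

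Each peak of replicate 1 was paired with the peak of replicate 2 that it overlapped most. TSSs came from GENCODE vM21. Masked bases were read from the lower case of the RefSeq FASTA of GRCm38.p6, whose masking method no source used here gives. The mask names no family and marks some elements only in part. Uniqueness was counted with 32-mers over both strands of the chromosomes 1 to 19, X and Y. Masked genome windows for sequence features were every 500th window of the 20 bp grid. Groups were made with blastn 2.17.0 and single linkage, and copies with the same limits of 80% identity and 100 bp. Python 3.11.15, pandas 2.3.3 and SciPy 1.17.1 were used. Pairing, 32-mers, motif search, composition and grouping were tested on simulated data with known answers.

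The members, gene lists, motifs and rules were chosen with earlier results of these data known. Regions named are the 10 with the highest mean percentile, the 5 least unique with values at or above both library medians, 2 from each of the 6 largest groups, the 5 with the highest tandem score, the 5 that differed most between libraries and the highest near each gene list, of which the text gives examples. Genes named are those nearest them and the 10 with most repeat peaks within 50 kb. The alternatives tried were other mask limits, overlaps, TSS distances and value limits, each library alone, 24-mers, 90% identity, other motif windows and a 20 kb gene window.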

Additional observations from a re-analysis of the deposited data

How the results depend on the processing

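The repeat peaks had lower values than other shared distal peaks under every alternative run. Values by kind, the relation to uniqueness, values by motif within groups, distances to TSSs and leans of single groups were not recomputed under alternatives. Sequence in groups of 3 or more and the percent of repeats depended on the limits. With all 150 bases masked there were 1123 repeat peaks (1.39% of shared distal peaks), 55.4% of them purine tracts, 86.6% higher in replicate 1, 11.0% with at least 90% unique 32-mers and 809 in groups of 3 or more. With at least 75 bases masked there were 4663 (5.79%), 19% purine tracts, 76.0% higher in replicate 1 and 39.3% unique, and the median value lay 15 below that of other shared distal peaks (a difference of -15 against -17.5, as the mean over libraries). Checking the mask in replicate 2's peak left 36.1% purine tracts. Beyond 5 kb from TSSs the share inside repeats was 2.99%. Among peaks at or above their library's median value there were 208 repeat peaks (0.527%), 34.6% purine tracts and 77.9% higher in replicate 1. Of these 208, 22.6% were unique and 100 in groups of 3 or more, with a value difference of -9. As the mean over libraries, 75% of them lay in a hotspot at the highest level, against 46.8% in the main setting. That share was not computed for all shared distal peaks under this limit. With 24-mers 2.63% were unique, and at 90% identity 195 peaks were in groups of 3 or more, the largest of 17 peaks. Each library alone, with no partner required, gave 2584 to 4158 repeat peaks, 2.55% to 3.50% of distal peaks, a value difference from -14 to -11, 34.2% to 44.5% purine tracts, 20.01% to 22.4% unique and 1661 to 2983 in groups of 3 or more. Keeping 1 peak per overlapping set, chosen after seeing the data, left 1800 peaks, 1044 of them in groups of 3 or more. Of the 1800, 82.4% were higher in replicate 1, and the value difference was the same. As the mean over libraries, 44.1% lay in a hotspot at the highest level, also against 46.8%. Other limits chosen after seeing the data gave 47.3% purine tracts at 80% purines and 25.8% at 95%, and a value difference of -14.5 among peaks with all 32-mers unique. Of the 34 motifs, 6 had a higher share in repeat peaks than in the windows 1000 bp away and 7 than in masked genome windows, against 1 for other shared distal peaks. CTCF went from a difference of -2.94 percentage points against other shared distal peaks to 5.30 and 4.93 against these windows. The log2 ratio for AGATAA in copies of group 5 in replicate 1 went from 1.66 to -0.14 at 140 bp. The cause of these changes was not tested. No paired analysis was possible because there is 1 group. Depth is unknown, so a repeat without a peak is not shown to be closed.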
